A study of Mus musculus with 8 samples.

Results

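The chemokine system was examined as 49 genes, 33 ligands and 16 receptors, out of 18193 genes measured in mouse blood stem and progenitor cells. Members were all genes whose platform annotation gave a single symbol of the form Ccl, Cxcl, Cx3cl, Xcl, Ccr, Cxcr, Cx3cr or Xcr with a number. They were read by 77 probe sets, and 18 members had more than 1, in which case the one with the highest average over all 8 arrays was used. All 49 were found by gene identifier in the RefSeq gene table, and 0 symbols had changed.

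Chemokines are small secreted proteins that steer moving leukocytes by binding receptors coupled to inhibitory G proteins. In bone marrow, Cxcl12 from stromal cells holds stem cells in place through the receptor Cxcr4, whereas inflammatory ligands such as Ccl2, Ccl3 and Ccl5 call in myeloid and lymphoid cells through Ccr1, Ccr2 and related receptors. Ccl3 is also known as a chemokine that acts on the growth of stem and progenitor cells, and it has been studied in marrow shared with leukemic cells.

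The samples were CD45.1+ cells, carrying no leukemia transgene, that had been sorted from chimeric mice 4 weeks after tetracycline was taken out of the drinking water. KSL cells are lineage-negative marrow cells with Kit and Sca-1 on their surface, mostly progenitors, and HSC are those among them that carry CD150 and lack CD48 (CD150+ CD48-). The KSL gate thus contains the HSC. HSC from leukemic mice and KSL from leukemic mice came from CD45.1+ hosts that had received CD45.1+ marrow mixed in equal number with CD45.2+ marrow bearing BCR-ABL, the fusion kinase of chronic myeloid leukemia, under SCL-tTA, a driver active in blood stem and progenitor cells. HSC from normal mice and KSL from normal mice came from chimeras made in the same way but lacking the BCR-ABL transgene. Each of the 4 groups had 2 arrays, and the labels do not say that these were separate animals, so p-values measure the spread between these samples. In the leukemic groups that spread may be technical. The 2 arrays of each normal group differed in their pattern of sex-linked genes, so they were not repeats of 1 RNA sample. The CD45.1+ cells could descend from the host or from the co-transplanted marrow, and the labels do not separate these sources.

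Promoter sequences are shown for 6 members on which the comparisons below turn. For 36 of the 49 members the RefSeq promoter table (assembly GRCm38.p6) held an entry, and the 250 bases before each gene's start are printed 5′ to 3′ on the gene's strand, with motif matches in capitals. Entries were missing for Ccl2, Ccl4, Ccl5, Ccl7, Ccl11, Ccl24, Ccr7, Ccr10, Cxcl5, Cxcl11, Cxcl16, Cxcl17 and Cxcr5. Ccl9 (chr11:83578637-83578886, minus strand), Ccl6 (chr11:83593088-83593337, minus strand) and Ccl3 (chr11:83649379-83649628, minus strand) are neighbours on chromosome 11 and are shown because their differences between groups were unlike. Ccr2 (chr9:124101933-124102182, plus strand) and Cxcr3 (chrX:101734148-101734397, minus strand) are receptors with opposite differences, and Cxcl2 (chr5:90903649-90903898, plus strand) is an inflammatory ligand lower in HSC than in KSL.
Ccl9: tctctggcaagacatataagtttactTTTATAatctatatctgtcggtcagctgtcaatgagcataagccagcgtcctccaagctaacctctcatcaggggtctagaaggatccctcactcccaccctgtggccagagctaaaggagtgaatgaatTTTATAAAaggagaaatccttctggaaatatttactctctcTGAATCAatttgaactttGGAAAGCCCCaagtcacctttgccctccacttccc
Ccl6: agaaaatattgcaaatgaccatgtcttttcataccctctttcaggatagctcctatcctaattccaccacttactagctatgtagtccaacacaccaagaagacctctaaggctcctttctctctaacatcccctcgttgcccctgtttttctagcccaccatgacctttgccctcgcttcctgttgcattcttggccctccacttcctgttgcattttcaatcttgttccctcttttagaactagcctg
Ccl3: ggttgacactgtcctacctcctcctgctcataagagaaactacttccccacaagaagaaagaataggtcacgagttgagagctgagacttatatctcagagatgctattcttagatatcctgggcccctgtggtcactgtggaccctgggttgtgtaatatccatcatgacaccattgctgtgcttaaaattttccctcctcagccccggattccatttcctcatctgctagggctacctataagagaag
Ccr2: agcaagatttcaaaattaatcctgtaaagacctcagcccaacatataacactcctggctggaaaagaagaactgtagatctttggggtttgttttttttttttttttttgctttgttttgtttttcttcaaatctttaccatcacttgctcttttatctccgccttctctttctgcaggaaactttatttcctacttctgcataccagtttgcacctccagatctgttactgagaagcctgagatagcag
Cxcr3: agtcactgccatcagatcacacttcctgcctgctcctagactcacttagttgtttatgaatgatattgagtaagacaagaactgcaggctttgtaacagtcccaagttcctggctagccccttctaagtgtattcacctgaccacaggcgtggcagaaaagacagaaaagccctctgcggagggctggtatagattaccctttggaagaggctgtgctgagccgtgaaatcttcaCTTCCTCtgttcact
Cxcl2: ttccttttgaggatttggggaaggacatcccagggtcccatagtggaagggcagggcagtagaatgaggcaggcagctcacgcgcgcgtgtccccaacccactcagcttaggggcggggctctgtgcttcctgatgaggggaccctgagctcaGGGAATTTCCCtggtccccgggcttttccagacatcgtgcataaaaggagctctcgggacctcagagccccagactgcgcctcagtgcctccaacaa

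6 motifs were searched on both strands over these 250 bases. They were the NF-kB motif, the PU.1 motif GAGGAAG, the C/EBP motif TTGCNNAA, the AP-1 motif TGANTCA, the STAT motif TTCNNNGAA and the TATA box TATAAA. The table held 40 promoters of the 36 members, as 3 members (Ccl25, Ccl27a and Ccr6) had more than 1. The NF-kB motif occurred in 10 of these 40 (1 promoter each of Ccl1, Ccl9, Ccl20, Ccr1, Ccr3, Ccr6, Cxcl1, Cxcl2, Cxcl3 and Cxcl10), against 7.25% of 32851 promoters of the table. The PU.1 motif was in 5 of the 40 (10.6% of all promoters), C/EBP in 3 (9.56%), AP-1 in 5 (6.75%), STAT in 3 (7.02%) and the TATA box in 11 (12.4%). In Ccl9 the capitals mark an NF-kB match at -35 to -26, an AP-1 match at -53 to -47 and TATA box matches at -224 to -219, -94 to -89 and -92 to -87, the last pair overlapping. Cxcl2 had overlapping NF-kB matches at -97 to -88 and -96 to -87, and Cxcr3 a PU.1 match at -15 to -9. The windows of Ccl6, Ccl3 and Ccr2 held none of the 6 motifs. These are matches of letters, not measured sites.

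Values are the authors' log2 values, in which a difference of 1 is a 2-fold difference, and they have a floor at 3.32 (10 on the linear scale). Array medians lay between 5.74 and 5.86 and replicates correlated across genes with r = 0.957 in HSC from leukemic mice, 0.965 in HSC from normal mice, 0.994 in KSL from leukemic mice and 0.988 in KSL from normal mice. The median SD of members between replicates was 0.15 and 0.18 in HSC from leukemic and normal mice and 0.10 and 0.11 in KSL from leukemic and normal mice, so the HSC arrays were the more spread ones. Replicate 1 of HSC from normal mice and replicate 1 of KSL from normal mice had a male pattern of sex-linked genes and the other 6 arrays had female levels of Xist, so both leukemic groups had female-pattern arrays only. The 3′ minus 5′ difference of the Gapdh control probes was 1.19 and 1.03 in HSC from leukemic mice, against 0.78 and 0.83 in HSC from normal mice. For Tfrc it was -0.36 and -0.75 in HSC from leukemic mice, against -2.04 and -1.74 in HSC from normal mice, and the part of this difference in RNA quality in the results below was not tested.

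Of the 49 members, 39 lay above the floor on all arrays (85.1% of all genes did), 7 lay at the floor on some arrays and 3, the neutrophil-attracting ligand genes Cxcl3 and Cxcl5 and the monocyte-attracting Ccl12, lay at the floor on all 8. Levels of several members moved over a wide range between arrays. Ccl3 spanned 6.39 log2 units over the 8 arrays, Ccr2 5.75, Ccl9 5.06 and Ccl5 4.68, each wider than in 99.4% of genes or more. The ranges of Cxcl12 (3.40), Ccl6 (3.11) and Cxcl2 (2.93) exceeded those of 97.7%, 96.7% and 96.1% of genes. At the other end, among members above the floor on all arrays, Ccl7, Ccl8, Cxcl11 and Cxcl13 each varied by 0.45 or less.

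**Figure D1:**
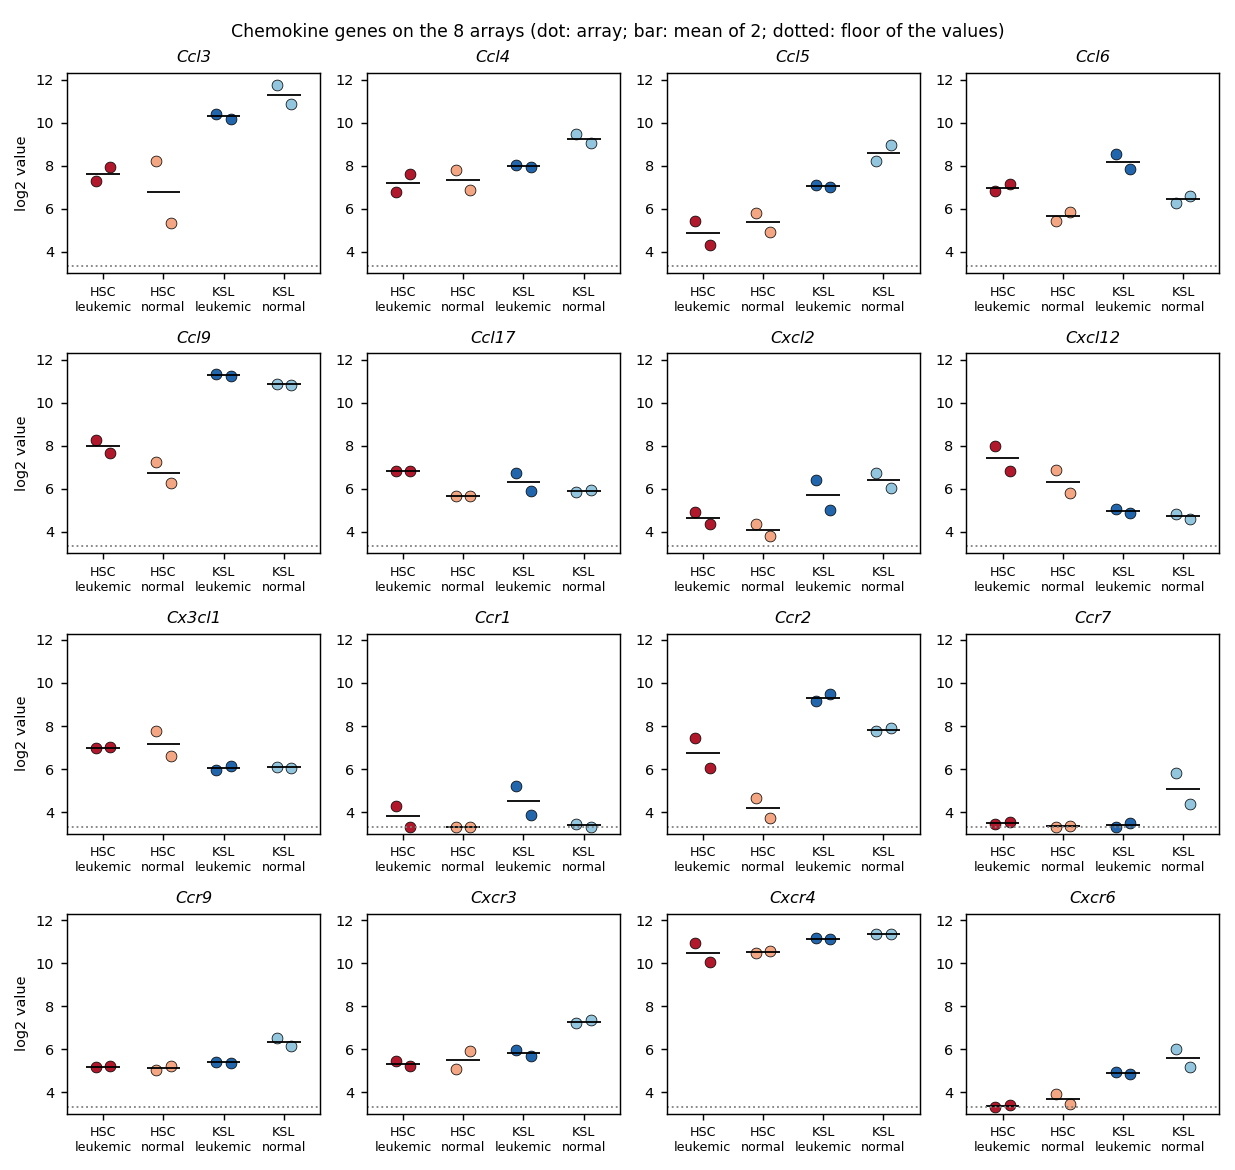
Log2 value (vertical axis) of 16 members on each array, by group from left to right: HSC from leukemic mice, HSC from normal mice, KSL from leukemic mice, KSL from normal mice. Dots are arrays, bars the mean of 2 arrays and the dotted line the floor of 3.32. Ccr2, Ccl9, Ccl5 and Ccl3 sit far lower in HSC than in KSL, and Ccl6 and Ccr2 sit higher on both leukemic arrays than on both normal arrays of the same gate.

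The first comparison asked how the chemokine genes of non-transformed HSC differed when the marrow was shared with BCR-ABL cells. The receptor gene Ccr2, which brings monocytes and their precursors to Ccl2, and the ligand genes Ccl6, Ccl9 and Ccl17 were higher on both arrays of HSC from leukemic mice than on either array of HSC from normal mice, by 1.13 to 2.53 log2 units. None of the 49 members passed the test, limma's moderated test with Benjamini-Hochberg adjustment over all genes at 0.05, against 0.0989% of all genes, and their lowest adjusted p was 0.198. At an unadjusted p under 0.05 there were 6 members, against 13.8% of all genes. Groups lay apart by at least 1 log2 unit, every array of one group beyond every array of the other, for 4 members upward (2.23% of all genes) and 0 downward (2.68%). Over all members the median difference was 0.04 log2 units, with 25 higher and 20 lower, beside a median of 0.00 over all genes.

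Among the ligands, Ccl6 had log2 values of 6.81 and 7.14 in HSC from leukemic mice, against 5.43 and 5.86 in HSC from normal mice. Ccl6 is a chemokine that rodents make in myeloid cells, and its groups did not overlap, with a log2 difference of 1.33 ± 0.31 (SE, n = 2 each, adjusted p = 0.211). Here and below, the SE comes from 1 spread per gene shared by all 4 groups, not from the compared arrays alone. Ccl9, a rodent chemokine that binds Ccr1 and attracts dendritic and myeloid cells, had 8.26 and 7.69 in HSC from leukemic mice, against 7.23 and 6.27 in HSC from normal mice. Both leukemic arrays lay above both normal ones, and the difference was 1.22 ± 0.37 (adjusted p = 0.276). Ccl17, a ligand of Ccr4 made by dendritic cells, had 6.81 and 6.82 in HSC from leukemic mice, against 5.68 and 5.69 in HSC from normal mice, a difference of 1.13 ± 0.28 (adjusted p = 0.22). Its replicates differed by 0.01 in both groups, while in KSL from leukemic mice the arrays were at 6.76 and 5.92.

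Ccr2 was the receptor with groups apart. It had 7.43 and 6.06 in HSC from leukemic mice, against 4.67 and 3.74 in HSC from normal mice. The lower leukemic array was 1.39 above the higher normal one, and the difference was 2.53 ± 0.56 (adjusted p = 0.198). Its ligand gene Ccl2, the monocyte chemoattractant, had 6.88 and 6.79 in HSC from leukemic mice, against 6.50 and 6.15 in HSC from normal mice. These arrays did not overlap either, at a smaller difference of 0.51 ± 0.13 (adjusted p = 0.23).

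The other inflammatory members overlapped between HSC from leukemic and normal mice or differed by less than 1 log2 unit. Ccl3, which signals through Ccr1, had 7.30 and 7.95 in HSC from leukemic mice, against 8.21 and 5.34 in HSC from normal mice, where the replicates were 2.87 apart. Ccl4, an inflammatory ligand close to Ccl3, had 6.77 and 7.62 in HSC from leukemic mice and 7.79 and 6.89 in HSC from normal mice, and Ccl5, which binds Ccr1 and Ccr3, had 5.44 and 4.30, against 5.80 and 4.92. Cxcl10, the interferon-induced ligand of Cxcr3, had 5.40 and 5.19 in HSC from leukemic mice, against 3.68 and 5.16 in HSC from normal mice, a difference of 0.88 ± 0.50 (adjusted p = 0.537). Differences of Cxcl1 (0.09 ± 0.11) and Cxcl2 (0.54 ± 0.57), which attract neutrophils through Cxcr2, and of Cxcl16 (-0.11 ± 0.33), the ligand of Cxcr6, were small beside their errors. Receptor differences were 0.26 ± 0.25 for Cxcr2, -0.17 ± 0.30 for Cxcr3, 0.48 ± 0.55 for Ccr1, 0.15 ± 0.48 for the lymphocyte homing receptor Ccr7, 0.04 ± 0.13 for Ccr9 and 0.37 ± 0.36 for the fractalkine receptor Cx3cr1.

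Markers of myeloid progenitors and mature myeloid cells moved beside these members in HSC. Of 9 measured granulocyte-monocyte progenitor genes, 7 had groups apart upward and 0 downward, with a median difference of 1.58, and their summed linear level was 4970 to 7601 in HSC from leukemic mice, against 2019 to 2640 in HSC from normal mice. Of 9 neutrophil genes, 4 lay apart upward, and the sum was 13256 to 19019 in HSC from leukemic mice, against 599 to 10142 in HSC from normal mice, whose arrays were far from each other. Of 10 monocyte and macrophage genes, 2 lay apart upward and 1 downward, with sums of 981 to 1056 in HSC from leukemic mice and 632 to 760 in HSC from normal mice, and the macrophage marker Adgre1 was at the floor on both arrays of HSC from leukemic mice. Of 7 mast cell and basophil genes all were higher, and Fcer1a and Mcpt8 lay apart, with sums of 243 to 594 in HSC from leukemic mice, against 173 to 239 in HSC from normal mice. All 8 long-term HSC markers were lower, with a median of -0.61 and Procr and Fgd5 apart, and their sums were 3883 to 4712 in HSC from leukemic mice, against 6027 to 6627 in HSC from normal mice. The part of these lists in the higher Ccr2, Ccl6 and Ccl9 values was not tested, and in sorted populations a larger number of cells of a type and more RNA per cell cannot be told apart.

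Sizes moved with the probe sets and with single arrays. The Ccl9 difference was 0.35 with the mean of both probe sets and 0.74 without replicate 2 of HSC from normal mice, and with probe sets averaged that of Ccr2 was 1.17 and that of Ccl6 0.83. Without replicate 2 of HSC from leukemic mice 1 member passed, Ccl25, a gut and thymus ligand of Ccr9 named after its values were seen, which had 8.14 and 5.88 in HSC from leukemic mice, against 6.33 and 6.22 in HSC from normal mice.

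In the whole KSL gate 8 members had groups apart, 3 upward and 5 downward. Ccl6, Ccr2 and Ccr1 were higher, and Ccl3, Ccl4, Ccl5, Cxcr3 and Ccr7 lower, on both arrays of KSL from leukemic mice than on either array of KSL from normal mice, by 1.01 to 1.74 log2 units. Again 0 of 49 members passed the test, against 0.0440% of all genes, with a lowest adjusted p of 0.215. An unadjusted p under 0.05 was reached by 11 members, against 7.95% of all genes. With groups apart there were 3 members upward (0.709% of all genes) and 5 downward (1.46%). The median over all members was 0.00, as over all genes, and over the 16 receptors -0.14, with 5 higher and 11 lower.

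Ccl6 had 8.54 and 7.83 in KSL from leukemic mice, against 6.27 and 6.61 in KSL from normal mice. The gap between the groups was wider than the spread within either, and the difference was 1.74 ± 0.31 (adjusted p = 0.259). Ccr2 had 9.16 and 9.49 in KSL from leukemic mice, against 7.76 and 7.91 in KSL from normal mice, a difference of 1.49 ± 0.56 (adjusted p = 0.621). Ccr1, the receptor of Ccl3, Ccl5, Ccl6 and Ccl9 on myeloid cells, was near the floor, with 5.23 and 3.84 in KSL from leukemic mice, against 3.44 and 3.32 in KSL from normal mice. Its difference of 1.15 ± 0.55 (adjusted p = 0.769) was 0.46 without replicate 1 of KSL from leukemic mice and 1.85 without replicate 2. The second probe set of Ccr1 was at the floor on all 8 arrays.

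The lower ligands were inflammatory ones, Ccl3, Ccl4 and Ccl5. Ccl5 had 7.10 and 6.99 in KSL from leukemic mice, against 8.21 and 8.98 in KSL from normal mice. Its groups were 1.11 apart at their nearest arrays, and the difference was -1.55 ± 0.53 (adjusted p = 0.585). Ccl4 had 8.02 and 7.95 in KSL from leukemic mice, against 9.46 and 9.05 in KSL from normal mice, a difference of -1.27 ± 0.43 (adjusted p = 0.576). Ccl3 had 10.42 and 10.17 in KSL from leukemic mice, against 11.73 and 10.89 in KSL from normal mice, a difference of -1.01 ± 1.01 (adjusted p = 1). With a term for the male-pattern arrays the Ccl3 difference was -0.08, and without replicate 1 of KSL from normal mice it was -0.59.

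Among the lower receptors, Cxcr3, which guides T and NK cells to Cxcl9, Cxcl10 and Cxcl11, had 5.96 and 5.67 in KSL from leukemic mice, against 7.21 and 7.34 in KSL from normal mice. The replicates lay within 0.29 of each other and the groups 1.25 apart, with a difference of -1.46 ± 0.30 (adjusted p = 0.315). Ccr7 had 3.32 and 3.49 in KSL from leukemic mice, against 5.81 and 4.37 in KSL from normal mice, a difference of -1.68 ± 0.48 (adjusted p = 0.51) that was -0.96 without replicate 1 of KSL from normal mice, a male-pattern array, and -2.40 without replicate 2. Ccr9, which brings lymphoid progenitors to the thymus, had 5.42 and 5.34 in KSL from leukemic mice, against 6.50 and 6.17 in KSL from normal mice, a difference of -0.95 ± 0.13 (adjusted p = 0.215). That difference had the smallest adjusted p of the members in KSL, just short of 1 log2 unit.

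On the probe sets used, other members of the fixed set differed less in KSL. Ccl2 had 6.63 and 6.49 in KSL from leukemic mice, against 6.28 and 6.18 in KSL from normal mice, a difference of 0.33 ± 0.13 (adjusted p = 0.659) whose groups did not overlap. Ccl9 had 11.34 and 11.27 in KSL from leukemic mice, against 10.88 and 10.84 in KSL from normal mice, a difference of 0.44 ± 0.37 (adjusted p = 0.984), also without overlap. Cxcl2 was at -0.69 ± 0.57, Cxcl10 at 0.49 ± 0.50, Cxcl1 at 0.15 ± 0.11, Cxcl16 at -0.17 ± 0.33, Cxcr2 at 0.01 ± 0.25 and Cx3cr1 at -0.22 ± 0.36. The second probe set of Cx3cr1 differed by -1.38, with groups apart. It had 5.05 and 5.38 in KSL from leukemic mice, against 6.30 and 6.89 in KSL from normal mice.

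Lymphoid, mast cell and stem cell markers moved beside these members in KSL. Of 6 lymphoid-primed progenitor genes, 5 lay apart downward, with a median of -1.28, and their summed linear level was 3417 to 5678 in KSL from leukemic mice, against 11120 to 11917 in KSL from normal mice. Of 5 dendritic cell genes, 2 lay apart downward, Zbtb46 and Flt3, and Flt3 is also among the lymphoid-primed genes that lay apart. The dendritic cell sums were 588 to 607 in KSL from leukemic mice and 1221 to 1743 in KSL from normal mice. Cd3e and Cd4 lay apart downward among 8 T and NK cell genes, whose sums overlapped at 4202 to 5154 in KSL from leukemic mice and 4232 to 4994 in KSL from normal mice. Of 7 mast cell and basophil genes, 4 lay apart upward, with sums of 4079 to 4176 in KSL from leukemic mice, against 2329 to 2677 in KSL from normal mice. Of 8 long-term HSC markers 7 were lower, with a median of -0.73 and Hlf, Prdm16 and Meis1 apart, and the sums were 654 to 787 in KSL from leukemic mice, against 1369 to 1549 in KSL from normal mice. Granulocyte-monocyte progenitor genes were higher for 7 of 9 and lower for 2, with a median of 0.42 and 0 apart. Their sums were 44218 to 47373 in KSL from leukemic mice, against 33881 to 37900 in KSL from normal mice. All 6 megakaryocyte and platelet genes were lower, with a median of -0.76 and Pf4 apart. The neutrophil genes Lcn2 and Cd177 lay apart upward, with sums of 5190 to 8259 in KSL from leukemic mice, against 3380 to 5064 in KSL from normal mice. The macrophage genes C1qa and C1qb lay apart downward, while the monocyte and macrophage sums overlapped at 3443 to 3896 in KSL from leukemic mice and 3734 to 4659 in KSL from normal mice. The part of these lists in the lower Ccl5, Cxcr3, Ccr7 and Ccr9 and in the higher Ccl6 and Ccr2 was not tested.

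**Figure D2:**
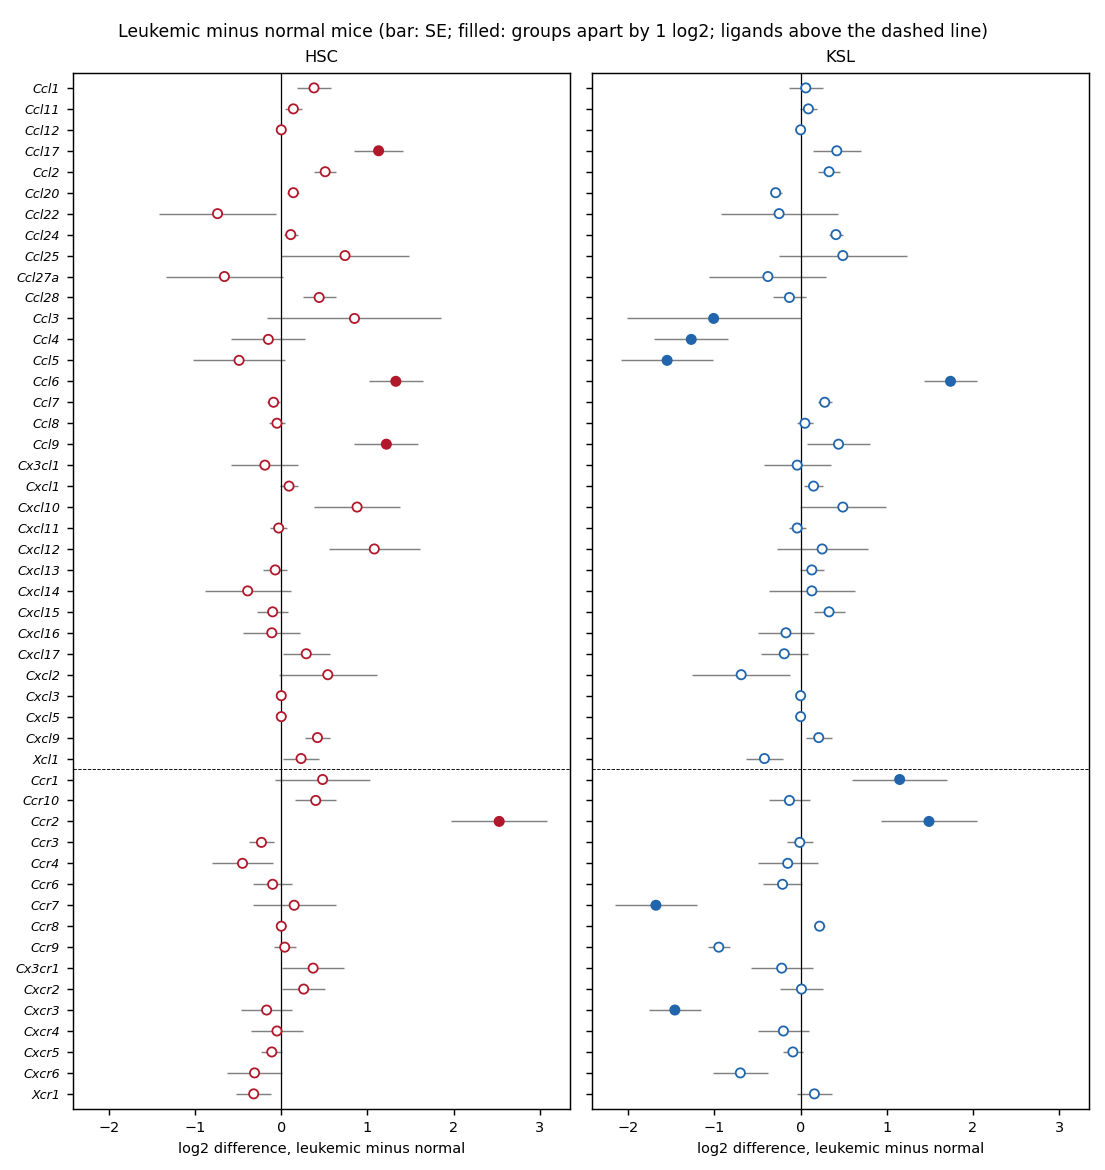
Log2 difference, leukemic minus normal mice (horizontal axis), of all 49 members in HSC (left) and KSL (right), with SE bars, ligands above the dashed line and receptors below it. Filled points have groups apart by at least 1 log2 unit. Ccr2 (2.53 and 1.49) and Ccl6 (1.33 and 1.74) are filled on the positive side in both panels, and Ccl3, Ccl4, Ccl5, Ccr7 and Cxcr3 on the negative side in KSL.

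The HSC and KSL differences share no arrays and were set side by side. They may not be separate evidence, as the KSL gate contains the HSC. The labels do not say whether both gates came from the same mice, and same-numbered arrays of normal mice shared a sex pattern. All leukemic arrays lay on the same side of all normal arrays in both gates for 8 of 49 members (16.3%), against 10.2% of all genes. These were Ccl2, Ccl6, Ccl9, Ccl24, Ccr2, Cxcl9 and Cxcl10, higher in leukemic mice in both, and Cxcr6, lower in both. No size was required, here or over all genes. In HSC the nearest arrays were 1.39 apart for Ccr2 but 0.03 for Cxcl10 and Ccl24 and 0.04 for Cxcr6. In KSL those of Cxcl9 were 0.01 apart. The second probe sets of Ccl9 (-0.52) and Cxcl9 (-0.12) went the other way in HSC, while those of Ccl6 and Ccr2 did not. Ccl24 and Cxcl9 were named after their values were seen, and their differences in HSC and KSL were 0.11 and 0.41 for Ccl24 and 0.42 and 0.21 for Cxcl9. Opposite sides were found for 3 members (6.12%), against 6.08% of all genes.

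The difference itself, the HSC value minus the KSL value, was tested as an interaction and passed for 0 of 49 members, against 0.00550% of all genes, with a lowest adjusted p of 0.311. At an unadjusted p under 0.05 there were 6 members, against 9.09% of all genes. Ccr9 had the smallest p, with an interaction of 0.99 ± 0.18 (adjusted p = 0.311), as its HSC arrays were level between leukemic and normal mice while its KSL arrays were not. Next by p came the ligands Ccl20 (0.43 ± 0.09, adjusted p = 0.344) and Ccl7 (-0.38 ± 0.12, adjusted p = 0.465, named after its values were seen), at smaller sizes, and then Cxcr3 with 1.29 ± 0.42 (adjusted p = 0.474). For Ccr2 the interaction was 1.04 ± 0.79 (adjusted p = 0.791), for Ccl6 -0.41 ± 0.44 (adjusted p = 0.868), for Ccl3 1.86 ± 1.42 (adjusted p = 0.794) and for Ccl5 1.06 ± 0.76 (adjusted p = 0.776). No member was thus shown to differ in its response between HSC and KSL.

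Between the gates Ccl9, Ccl20 and Ccr9 passed the test. In leukemic mice Ccl9 fell in HSC relative to KSL by 3.33 ± 0.37 log2 units (adjusted p = 0.0211), and Ccl20, a ligand of Ccr6 on lymphoid and dendritic cells, rose by 0.53 ± 0.07 (adjusted p = 0.0264). These were the members that passed, 1 lower against 2.74% of all genes and 1 higher against 3.13%. At an unadjusted p under 0.05 there were 13 members, against 23.0% of all genes. Groups lay apart upward for 1 member, Cxcl12 (6.02% of all genes), and downward for 7, Ccl3, Ccl5, Ccl6, Ccl9, Cxcl2, Ccr2 and Cxcr6 (5.01%).

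In normal mice Ccl9 fell in HSC relative to KSL by 4.11 ± 0.37 (adjusted p = 0.0233) and Ccr9 by 1.20 ± 0.13 (adjusted p = 0.0341). These 2 members passed downward, against 1.00% of all genes, and 0 upward, against 0.803%. An unadjusted p under 0.05 was reached by 18 members, against 16.2% of all genes. Groups lay apart upward for Cxcl12 and Cx3cl1 (4.20% of all genes) and downward for 12 members (4.00%), 5 of them ligands and 7 of them receptors. Of the 16 receptors 12 were lower and 3 higher, at a median of -0.55, beside medians of 0.00 over the ligands and 0.00 over all genes. In leukemic mice 13 receptors were lower and 2 higher, and the median was -0.29.

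Ccl9 was the member that passed in both kinds of mice. On the arrays it had 8.26 and 7.69 in HSC and 11.34 and 11.27 in KSL from leukemic mice, and 7.23 and 6.27 in HSC and 10.88 and 10.84 in KSL from normal mice. The nearest arrays of HSC and KSL were 2.58 apart. Its call in leukemic mice was lost without either KSL array of leukemic mice (adjusted p = 0.142 and 0.122) or of normal mice (0.0593). In normal mice it was lost without either KSL array of normal mice (0.109 and 0.131) or of leukemic mice (0.0914), with differences between -3.63 and -4.59 over all arrays left out in turn. Fitted on the 4 arrays of the comparison alone, both calls were lost (0.0683 in leukemic and 0.147 in normal mice). Without the male-pattern arrays both were lost as well (0.0683 and 0.111), and with replicate number as a block that in normal mice was (0.0512).

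Ccr9 had 5.05 and 5.22 in HSC, against 6.50 and 6.17 in KSL from normal mice. The groups were 0.95 apart at their nearest arrays, and in leukemic mice the HSC arrays, at 5.15 and 5.20, were 0.14 below the lower KSL array. The call in normal mice was lost whichever array was left out (adjusted p = 0.0577 to 0.116). It was also lost with the mean of all probe sets (0.318), array weights (0.0665), the arrays of the comparison alone (0.182), the replicate block (0.0899), a male-pattern term (0.0754) and the male-pattern arrays left out (0.111). Ccl20 had 5.51 and 5.59 in HSC, against 5.07 and 4.96 in KSL from leukemic mice, and 5.36 and 5.45 in HSC, against 5.26 and 5.35 in KSL from normal mice. Its call in leukemic mice was lost without replicate 2 of HSC from leukemic mice (0.0611) or any KSL array (0.0626 to 0.134). Other settings that lost the Ccl20 call included a shift of arrays to a common median (0.0523), array weights (0.0552), an intensity trend (0.071) and the replicate block (0.0609). The arrays of the comparison alone (0.0934) and a fit with the male-pattern arrays left out lost it too.

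On the probe sets used, members with groups apart in both kinds of mice were lower in HSC except Cxcl12. Ccl5 differed by -2.18 ± 0.53 (adjusted p = 0.0998) in leukemic mice and by -3.23 ± 0.53 (adjusted p = 0.0749) in normal mice. Ccr2 differed by -2.59 ± 0.56 (adjusted p = 0.0765) in leukemic mice and by -3.63 ± 0.56 (adjusted p = 0.0652) in normal mice. Cxcr6, a receptor of Cxcl16 on T and NK cells, had 3.32 and 3.39 in HSC, against 4.95 and 4.85 in KSL from leukemic mice, and 3.91 and 3.43 in HSC, against 6.01 and 5.19 in KSL from normal mice. These HSC values lay at or near the floor, and the differences were -1.54 ± 0.32 (adjusted p = 0.0705) in leukemic mice and -1.93 ± 0.32 (adjusted p = 0.0745) in normal mice.

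Ccl3 had the largest difference of the members between the gates in normal mice and the largest error. It had 7.30 and 7.95 in HSC, against 10.42 and 10.17 in KSL from leukemic mice, and 8.21 and 5.34 in HSC, against 11.73 and 10.89 in KSL from normal mice. No arrays overlapped, and the differences were -2.67 ± 1.01 (adjusted p = 0.213) in leukemic mice and -4.53 ± 1.01 (adjusted p = 0.13) in normal mice. Cxcl2 had 4.91 and 4.35 in HSC, against 6.40 and 5.02 in KSL from leukemic mice, and 4.37 and 3.81 in HSC, against 6.75 and 6.05 in KSL from normal mice. Its differences were -1.08 ± 0.57 (adjusted p = 0.351), which was -0.39 without replicate 1 of KSL from leukemic mice and -1.77 without replicate 2, and -2.31 ± 0.57 (adjusted p = 0.154) in normal mice.

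Apart in normal mice and not in leukemic mice were Ccl4 (-1.91 ± 0.43, adjusted p = 0.131), Cxcr3 (-1.78 ± 0.30, 0.0769), Ccr7 (-1.75 ± 0.48, 0.181), Cx3cr1 (-1.47 ± 0.36, 0.155), Cxcr2 (-1.04 ± 0.25, 0.15), Ccr9 and Cx3cl1. In leukemic mice the same genes were at -0.79 ± 0.43, -0.49 ± 0.30, 0.08 ± 0.48, -0.88 ± 0.36, -0.79 ± 0.25, -0.21 ± 0.13 and 0.95 ± 0.39 in that order. Whether these differ between leukemic and normal mice is the interaction given above, which passed for none of them. Without replicate 1 of KSL from normal mice, the male-pattern array, the differences in normal mice were -1.03 for Ccr7 and -0.93 for Cx3cr1. The second probe set of Cx3cr1 gave -2.80 in normal mice and -1.20 in leukemic mice, with groups apart in both. Ccl6 lay apart in leukemic mice (-1.21 ± 0.31, adjusted p = 0.111, and -2.11 with the mean of its probe sets) and was at -0.80 ± 0.31 (adjusted p = 0.322) in normal mice. The fixed members Ccl2, Cxcl1, Cxcl10, Cxcl16 and Ccr1 were at 0.28, 0.24, 0.19, 0.40 and -0.74 in leukemic mice. In normal mice they were at 0.09, 0.30, -0.20, 0.34 and -0.06 in that order.

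Of the pair that holds stem cells in the marrow, Cxcl12 was higher and Cxcr4 lower on every HSC array than on every KSL array, and neither passed the test. Cxcl12 had 8.01 and 6.82 in HSC, against 5.06 and 4.88 in KSL from leukemic mice, and 6.87 and 5.79 in HSC, against 4.83 and 4.61 in KSL from normal mice. The differences were 2.45 ± 0.53 (adjusted p = 0.0783) in leukemic mice and 1.61 ± 0.53 (adjusted p = 0.251) in normal mice, which was 1.07 without replicate 1 of the HSC. Between leukemic and normal mice Cxcl12 was at 1.08 ± 0.53 (adjusted p = 0.471) in HSC, where the arrays overlapped, and at 0.25 ± 0.53 in KSL. Of 9 stromal and endothelial genes, Col1a1 and Col1a2 lay apart upward and Vcam1 downward in HSC against KSL from leukemic mice. Their summed levels were 463 to 732 in HSC and 554 to 601 in KSL. In normal mice Kdr lay apart upward and Vcam1 downward in HSC against KSL, with sums of 457 to 639 in HSC and 544 to 637 in KSL. Between HSC from leukemic and normal mice Col1a1 and Col1a2 lay apart upward and Kdr downward. The part of these genes in the Cxcl12 differences was not tested.

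Its receptor Cxcr4 had 10.92 and 10.03 in HSC from leukemic mice, against 10.47 and 10.57 in HSC from normal mice. In KSL it had 11.17 and 11.11 in leukemic mice, against 11.34 and 11.34 in normal mice. The leukemic and normal arrays overlapped in HSC (-0.05 ± 0.30) and differed by -0.20 ± 0.30 in KSL, and HSC lay below KSL by 0.67 ± 0.30 in leukemic mice (adjusted p = 0.28) and 0.82 ± 0.30 in normal mice (adjusted p = 0.288). The membrane-bound ligand fractalkine, Cx3cl1, had 6.96 and 7.02 in HSC, against 5.96 and 6.12 in KSL from leukemic mice, and 7.77 and 6.59 in HSC, against 6.11 and 6.06 in KSL from normal mice. Its difference in normal mice was 1.09 ± 0.39 (adjusted p = 0.281), 0.51 without replicate 1 of HSC from normal mice and 1.68 without replicate 2. The other probe sets of Cx3cl1 gave 0.29, -0.04 and, at the floor, 0.00 in normal mice, and the mean of all its probe sets 0.34.

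Markers of lineage progenitors differed between the gates beside these members. All 9 granulocyte-monocyte progenitor genes lay apart downward in HSC, with sums of 4970 to 7601 in HSC and 44218 to 47373 in KSL from leukemic mice, and of 2019 to 2640 in HSC and 33881 to 37900 in KSL from normal mice. Of 8 T and NK cell genes, 4 in leukemic and 6 in normal mice lay apart downward, with sums of 1583 to 1620 in HSC and 4202 to 5154 in KSL from leukemic mice and 1160 to 1384 in HSC and 4232 to 4994 in KSL from normal mice. Of 10 monocyte and macrophage genes, 5 lay apart downward in each. Mast cell and basophil genes lay apart downward for 7 of 7 in leukemic and 6 of 7 in normal mice, with sums of 243 to 594 in HSC and 4079 to 4176 in KSL from leukemic mice and of 173 to 239 in HSC and 2329 to 2677 in KSL from normal mice. Of 6 lymphoid-primed progenitor genes, 3 in leukemic and 5 in normal mice lay apart downward (medians -1.40 and -3.23). Their sums were 893 to 3511 in HSC and 3417 to 5678 in KSL from leukemic mice, which overlapped, and 619 to 848 in HSC and 11120 to 11917 in KSL from normal mice. Megakaryocyte and platelet genes lay apart upward for 6 of 6 in leukemic and 5 of 6 in normal mice, a list that holds the platelet chemokines Pf4 and Ppbp. All 8 long-term HSC markers lay apart upward in both kinds of mice, with medians of 2.48 in leukemic and 2.74 in normal mice, in the direction of the gate's label. The part of these lists in the chemokine differences between the gates, the lower Ccr7 and Ccr9 among them, was not tested.

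**Figure D3:**
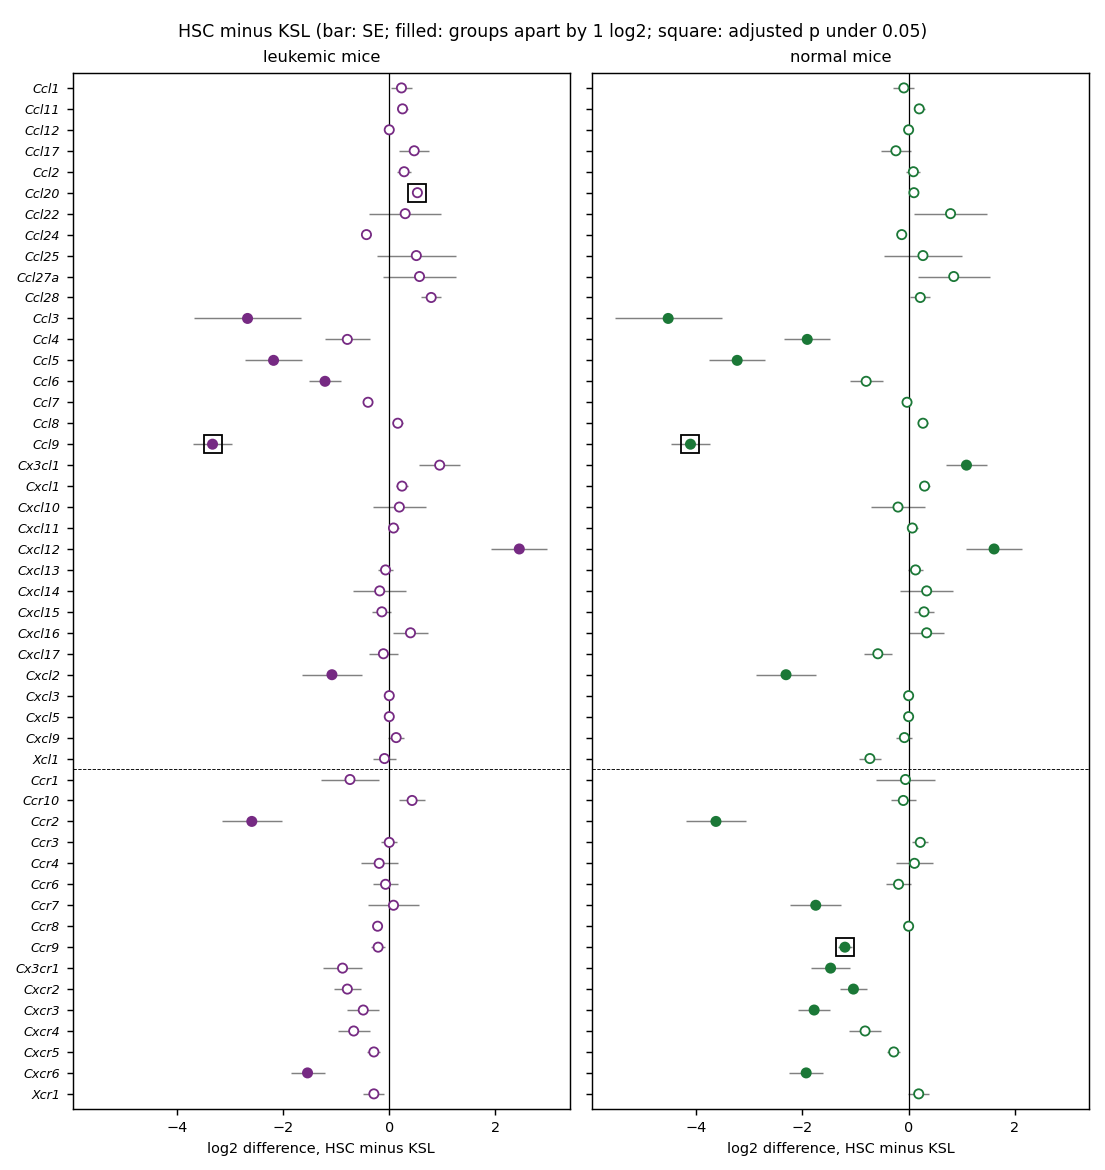
Log2 difference, HSC minus KSL (horizontal axis), of all 49 members in leukemic mice (left) and normal mice (right), with SE bars, ligands above the dashed line and receptors below it. Filled points have groups apart by at least 1 log2 unit, and squares mark members that passed: Ccl9 in both panels, Ccl20 in leukemic and Ccr9 in normal mice. Cxcl12 is filled on the positive side in both panels, and Cx3cl1 there in normal mice.

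Many chemokine genes lie in clusters, and the members were ordered along their chromosomes with the RefSeq table. Chromosome 11 held 14 members, chromosome 9 held 10 and chromosome 5 held 9. On chromosome 11 the genes Ccl5, Ccl9, Ccl6, Ccl3 and Ccl4 follow each other with 0 other coding genes between them. Their differences between KSL from leukemic and normal mice were -1.55, 0.44, 1.74, -1.01 and -1.27 in that order, so Ccl9 and Ccl6 were higher between neighbours that were lower. In HSC they were -0.49, 1.22, 1.33, 0.85 and -0.15. Between HSC and KSL they were -2.18, -3.33, -1.21, -2.67 and -0.79 in leukemic mice and -3.23, -4.11, -0.80, -4.53 and -1.91 in normal mice, all negative.

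The second run on chromosome 11, Ccl2, Ccl7, Ccl11, Ccl12, Ccl8 and Ccl1, differed by -0.09 to 0.51 between HSC from leukemic and normal mice and by 0.00 to 0.33 between KSL from leukemic and normal mice. On chromosome 9 the receptors Cxcr6, Xcr1, Ccr1, Ccr3 and Ccr2 are neighbours, with 1 other coding gene between Ccr1 and Ccr3. In KSL from leukemic against normal mice they were at -0.70, 0.16, 1.15, -0.01 and 1.49 in that order. On chromosome 5 Cxcl15, Cxcl1 and Cxcl2 are neighbours, and only Cxcl2 had groups apart in any comparison.

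**Figure D4:**
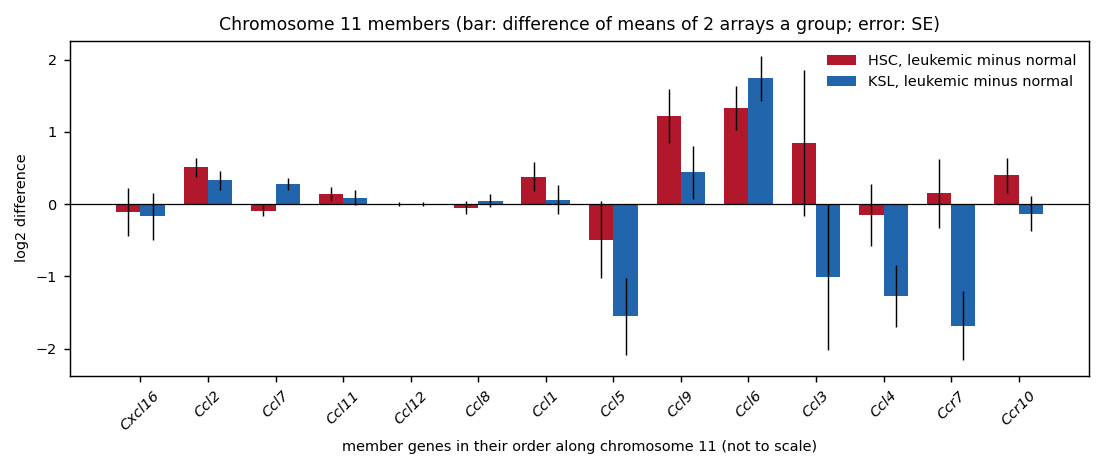
Log2 difference, leukemic minus normal mice (vertical axis), of the 14 members on chromosome 11 in their order along it (horizontal axis, not to scale), in HSC and KSL. Bars are differences of the means of 2 arrays and error bars are SE. In KSL, Ccl9 (0.44) and Ccl6 (1.74) are positive between Ccl5 (-1.55) and Ccl3 (-1.01).

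Several members had more than 1 probe set, and these did not all move alike. All 4 probe sets of Ccr2 were higher in KSL from leukemic mice, by 0.70 to 1.51, but in HSC they differed by 2.53, 1.78, 0.27 and 0.10. Both probe sets of Ccl6 were higher in leukemic mice, by 1.33 and 0.33 in HSC and by 1.74 and 1.44 in KSL. For Ccl9 the second probe set had 5.17 and 5.01 in HSC from leukemic mice, against 5.70 and 5.53 in HSC from normal mice, a difference of -0.52 where the first gave 1.22. Both Ccl9 probe sets were lower in HSC than in KSL, by 3.33 and 4.49 in leukemic mice and by 4.11 and 3.61 in normal mice. All 5 probe sets of Ccr9 had lower means in KSL from leukemic mice, by 0.16 to 1.32, but on some of them the groups overlapped. On those, replicate 2 of KSL from normal mice was at 4.99, 3.99 and 5.03. The arrays of KSL from leukemic mice were at 5.27 and 4.67, 4.43 and 4.18, and 4.97 and 5.16 in that order. Replicate 1 of KSL from normal mice, the male-pattern array, was at 6.92, 5.35 and 5.41. The third probe set of Cxcl12 gave 2.62 in leukemic and 1.73 in normal mice between HSC and KSL, near the first, and the second gave 0.22 and -0.08. The second probe set of Cxcl16 was higher in HSC than in KSL by 0.95 in leukemic and 1.26 in normal mice, without overlap. The first probe set of Cxcl16 gave 0.40 and 0.34.

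**Figure D5:**
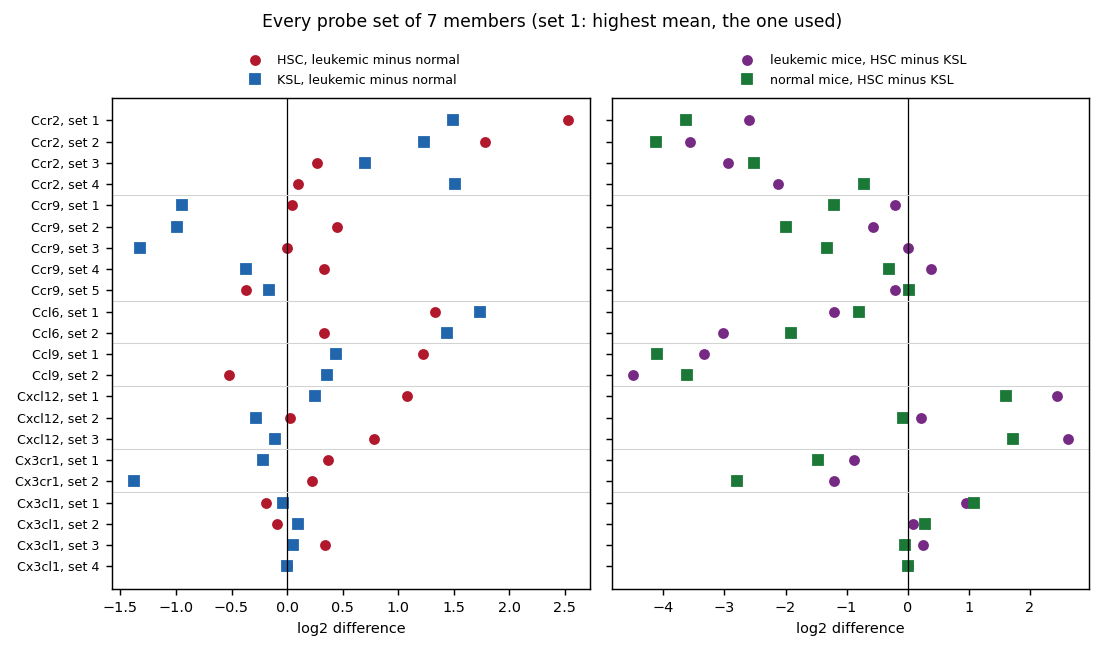
Log2 differences (horizontal axis) of every probe set of 7 members, set 1 being the one used. The left panel shows leukemic minus normal mice in HSC and KSL, and the right panel HSC minus KSL in leukemic and normal mice. Ccl9 set 2 lies at -0.52 in HSC of leukemic minus normal mice where set 1 lies at 1.22, while both lie below -3.3 in the right panel.

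The other 26 members differed by -0.74 (Ccl22) to 0.74 (Ccl25) in HSC and by -0.42 (Xcl1) to 0.49 (Ccl25) in KSL from leukemic against normal mice, with 0 of them past 1 log2 unit in any comparison. Single arrays stood out for a few of them, named after their values were seen. Ccl22, a ligand of Ccr4, had 6.65 on replicate 2 of HSC from normal mice and 4.50 to 5.02 on the other 7 arrays. Ccl25 had 8.14 on replicate 1 of HSC from leukemic mice and 5.88 to 6.50 on the other 7.

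Genes that act with the chemokine receptors were read from 3 lists. Of 11 other ligands, atypical receptors and the ligand-cleaving enzyme, 0 passed in leukemic against normal mice in either gate. The decoy-like receptor gene Ccrl2 had 6.14 and 5.64 in HSC from leukemic mice, against 7.09 and 8.02 in HSC from normal mice, a difference of -1.66 ± 0.38 (adjusted p = 0.206) with groups apart. The platelet chemokine Pf4 had 9.22 and 9.73 in KSL from leukemic mice, against 10.48 and 11.28 in KSL from normal mice, a difference of -1.40 ± 0.42 (adjusted p = 0.521). Between the gates of leukemic mice Pf4 rose in HSC by 2.81 ± 0.42 (adjusted p = 0.0366), and the platelet chemokine gene Ppbp lay apart in the same direction (3.04 ± 1.07, adjusted p = 0.189). The other megakaryocyte and platelet genes, Itga2b, Gp9, Vwf and Gp1bb, lay apart upward there too, and Itga2b (2.70 ± 0.26, adjusted p = 0.0168) and Gp9 (1.94 ± 0.23, adjusted p = 0.0241) passed. The summed level of the list, Pf4 and Ppbp included, was 9459 to 10294 in HSC and 1129 to 1402 in KSL from leukemic mice, and its part in the Pf4 difference was not tested. In normal mice Pf4 lay apart upward as well, with list sums of 4819 to 9658 in HSC and 2108 to 3649 in KSL. The scavenger receptor gene Ackr3, which clears Cxcl12, was at the floor on all 8 arrays.

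Of 24 signal transducers of the receptors, 0 passed in leukemic against normal mice, with medians of -0.02 in HSC and -0.12 in KSL. In HSC against KSL from leukemic mice 2 passed, 1 higher (3.13% of all genes) and 1 lower (2.74%). Pik3r6, an adaptor of the G protein-driven PI3 kinase, fell in HSC by 3.39 ± 0.50 (adjusted p = 0.0367), and Ptk2b, the kinase Pyk2, rose by 1.55 ± 0.22 (adjusted p = 0.0336). In normal mice they were at -3.16 ± 0.50 (adjusted p = 0.0695), with groups apart, and 0.73 ± 0.22 (adjusted p = 0.213). The Src-family kinase gene Fgr had 6.76 and 6.79 in HSC from leukemic mice, against 6.34 and 5.11 in HSC from normal mice, and 5.73 and 5.38 in KSL from leukemic mice. These groups lay apart, at 1.05 ± 0.67 (adjusted p = 0.589) between leukemic and normal mice and 1.22 ± 0.67 (adjusted p = 0.374) between the gates. Pik3r5, a regulatory subunit of the same PI3 kinase, had 5.76 and 5.95 in HSC, against 6.76 and 6.97 in KSL from normal mice, a difference of -1.01 ± 0.28 (adjusted p = 0.186).

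RGS proteins end the signals of G protein-coupled receptors. Of 8 RGS genes, 0 passed in leukemic against normal mice, with 5 higher and 3 lower in HSC and 1 higher and 7 lower in KSL (medians 0.06 and -0.46). Rgs1 had 9.79 and 10.07 in KSL from leukemic mice, against 10.92 and 10.82 in KSL from normal mice, a difference of -0.94 ± 0.16 (adjusted p = 0.245), and 11.57 and 11.78 in HSC from leukemic mice, against 11.32 and 11.64 in HSC from normal mice. Between the gates of leukemic mice Rgs1 rose in HSC by 1.75 ± 0.16 (adjusted p = 0.0145) and Rgs18 by 1.27 ± 0.12 (adjusted p = 0.0168), and Rgs19 fell by 1.34 ± 0.18 (adjusted p = 0.0307). In normal mice Rgs19 fell by 1.63 ± 0.18 (adjusted p = 0.0353), and Rgs1 (0.61 ± 0.16) and Rgs18 (0.66 ± 0.12) did not pass. Over all genes, 3.13% passed higher and 2.74% lower in leukemic mice, and 1.00% passed lower in normal mice. Rgs10 had 8.59 and 7.71 in HSC, against 9.43 and 9.15 in KSL from normal mice, a difference of -1.14 ± 0.42 (adjusted p = 0.291) with groups apart.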

How the data were processed

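RNA was measured on 8 Affymetrix mouse expression arrays. The authors deposited 1 table of log2 values for 45101 probe sets, made with RMA per the submitters' processing notes (its version is not given in the sources used here). For amplification, the series' design text names a Nugen amplification kit and the labels' protocols a standard Affymetrix one, so that step is not settled. Embryo wording in the descriptions was not used, and the disease state label grouped KSL of leukemic mice, whose titles carry both wordings. Probe sets were named by the platform annotation (34945 with 1 symbol, 932 with several, 9160 with none, 64 controls), which left 18193 genes, each read by its highest-mean probe set. No dim genes were filtered. Group means were fitted over all 8 arrays with limma 3.58.1 in R 4.3.3 (lmFit, eBayes, two-sided, 4 residual and 0.67 prior degrees of freedom) and adjusted over all genes by Benjamini-Hochberg, for 5 comparisons, after a check on simulated data. Errors are SE of the fit, from 1 spread per gene shared by the 4 groups, and 2 arrays a group limit precision. Other steps ran in Python 3.11.15 with numpy 2.4.6 and pandas 2.3.3, and plots in matplotlib 3.10.9.

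Named genes are members that passed, members with groups apart by 1 log2 unit (up to 10 a direction) and 19 fixed members. Pathway genes are named where they passed or lay apart. The members and lists were chosen with earlier results of these data known. Replicate numbers were not used as pairs: the labels give none, and same-numbered samples had correlations of deviations of -0.04 to 0.09, the highest between HSC and KSL from normal mice, whose same-numbered arrays also share a sex pattern. Alternatives changed the scaling, filters, probe set rule, variance model, arrays and sex-pattern terms. The smallest exact two-sided permutation p with 2 arrays against 2 is 0.333. RefSeq coordinates (GRCm38.p6) served for gene order and promoters.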

Additional observations from a re-analysis of the deposited data

Results flagged for a closer look

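In 3 members every array of HSC of leukemic mice lay on one side of HSC of normal mice and every array of KSL of leukemic mice on the opposite side of KSL of normal mice, as in 6.08% of all genes. The differences between the gates were tested as interactions, and none passed. For Ccr7 the HSC difference was 0.15 and the KSL difference -1.68, an interaction of 1.83 ± 0.67 (adjusted p = 0.53), with values at or near the floor in HSC. For Ccl20 they were 0.14 and -0.29, an interaction of 0.43 ± 0.09 (adjusted p = 0.344). For Ccl7, a monocyte chemoattractant, they were -0.09 and 0.28, an interaction of -0.38 ± 0.12 (adjusted p = 0.465), on arrays at 3.83 to 4.28.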

How the results depend on the processing

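Of 650 alternative values of 35 named differences, 574 kept their side of the threshold, 37 newly passed and 39 no longer passed. None of these values reversed direction, but they leave out single probe sets, where some directions did reverse. The second probe set of Ccl9 gave -0.52 in HSC of leukemic against normal mice. That of Cxcl12 gave -0.08 for HSC against KSL in normal mice. In leukemic against normal mice and in the interaction 0 members passed under every alternative except 1 in HSC without 1 array (0 to 1 over arrays left out). Without the 40% of genes with the lowest mean, 17 members remained, and the median was 0.44 in HSC of leukemic against normal mice, 0.59 for the interaction, -0.80 for HSC against KSL in normal and -0.49 in leukemic mice. In HSC against KSL of normal mice, members passing numbered 5 after shifting arrays to a common median, 6 without those dim genes, 7 without genes that touch the floor, 5 with the mean of all probe sets, 4 with every probe set tested, 1 with array weights, and 0 with only the arrays of the comparison or without the male-pattern arrays (0 to 4 over arrays left out). In leukemic mice they numbered 4 after the shift, 4 without the dim genes, 4 without floor genes, 8 with the mean of probe sets, 5 with every probe set, 1 with array weights, 1 with an intensity trend, 0 with only those arrays, 4 with a male-pattern term and 0 without the male-pattern arrays (0 to 5 over arrays left out). With the replicate block (same-numbered arrays of normal mice also shared their sex pattern, and the labels give no pairing), members passing were 0 in normal and 2 in leukemic mice (Ccl9, Cxcr2), against 2 and 2, and genes passing were 19 and 401, against 328 and 1067. The cause of these moves was not tested. An array left alone in its group is taken to vary as the remaining groups do. Over settings that kept all arrays of the comparison or dropped the male-pattern ones, genes passing ranged from 0 to 27 in HSC (18 as reported), 0 to 125 in KSL (8), 0 to 7 for the interaction (1), 0 to 546 between gates in normal mice (328) and 94 to 1535 in leukemic mice (1067). With 1 array left out the ranges were 0 to 257, 0 to 6, 0 to 68, 20 to 463 and 0 to 1316. Members near 3.32 have differences bounded by the floor.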
